A study of Mus musculus with 18 samples.

Results

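The IL-36 family is described here by 5 genes of the 41605 counted in mouse skin: the agonist cytokines Il1f6 (IL-36 alpha), Il1f8 (IL-36 beta) and Il1f9 (IL-36 gamma), the receptor antagonist Il1f5, and the receptor chain Il1rl2. They were picked by name with earlier results of these data known, so their counts past a threshold beside shares of all genes are descriptions. The Ensembl identifiers of the count files were matched to the symbols of the GENCODE M21 annotation. All 5 genes were found and passed the filter on low counts. RNA was sequenced from skin of C57BL/6 mice aged 8-12 weeks, in 6 libraries from skin treated with Detergent B, 6 from skin treated with Detergent A and 6 from skin treated with phosphate-buffered saline (PBS). Both detergents belong to a study of household laundry detergents, and the labels give no composition, dose or duration for either, and no genotype beyond the strain. The labels do not say whether each library came from its own animal, so p-values here measure only the spread between these libraries.

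IL-36 cytokines are members of the IL-1 family that epithelial cells, above all keratinocytes, make at body surfaces. An agonist binds the receptor chain encoded by Il1rl2, which then pairs with the accessory chain encoded by Il1rap and signals through the adaptor Myd88 to NF-kappa B and MAP kinases. The antagonist encoded by Il1f5 occupies the same chain without that pairing, and loss of its human counterpart causes a pustular form of psoriasis. The agonists gain full activity only after a protease trims their amino terminus, so RNA levels do not give the amount of active cytokine.

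In GRCm38 coordinates, all 4 cytokine genes lie on the plus strand of chromosome 2, with Il1f8 (ENSMUSG00000026985) at 24153161-24160519, Il1f9 (ENSMUSG00000044103) at 24186476-24193568, Il1f6 (ENSMUSG00000026984) at 24215418-24225702 and Il1f5 (ENSMUSG00000026983) at 24276954-24283426. The receptor gene Il1rl2 (ENSMUSG00000070942) lies on the plus strand of chromosome 1 at 40324610-40367562. Il1f8 and Il1f9 have 1 annotated transcript each, Il1f6 has 2, Il1rl2 has 4 and Il1f5 has 7. Promoter windows of 300 bases, from 250 before to 50 after the start site, came from RefSeq on GRCm38.p6 for 4 of the 5 genes. The windows of Il1f5 are not printed, though its r with Il1f8 (0.968) was above that of Il1f9 with Il1f8 (0.947). The windows of Il1f8 and Il1f9, which are 2 agonists that varied together across the libraries, and of the receptor Il1rl2, whose r with them was lower, are printed 5′ to 3′ with motif matches in capitals.
Il1f8, chr2:24152922-24153221, plus strand: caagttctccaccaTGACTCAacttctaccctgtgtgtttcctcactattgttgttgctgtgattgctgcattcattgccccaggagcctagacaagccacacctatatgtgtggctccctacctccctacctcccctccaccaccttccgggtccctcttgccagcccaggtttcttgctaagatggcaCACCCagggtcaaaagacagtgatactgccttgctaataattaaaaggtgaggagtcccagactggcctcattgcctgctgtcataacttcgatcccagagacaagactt
Il1f9, chr2:24186226-24186525, plus strand: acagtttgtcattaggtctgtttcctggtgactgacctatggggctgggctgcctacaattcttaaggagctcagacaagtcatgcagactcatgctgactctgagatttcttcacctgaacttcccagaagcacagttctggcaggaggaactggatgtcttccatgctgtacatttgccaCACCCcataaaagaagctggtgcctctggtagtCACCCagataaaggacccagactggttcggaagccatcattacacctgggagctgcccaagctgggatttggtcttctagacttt
Il1rl2, chr1:40324339-40324638, plus strand: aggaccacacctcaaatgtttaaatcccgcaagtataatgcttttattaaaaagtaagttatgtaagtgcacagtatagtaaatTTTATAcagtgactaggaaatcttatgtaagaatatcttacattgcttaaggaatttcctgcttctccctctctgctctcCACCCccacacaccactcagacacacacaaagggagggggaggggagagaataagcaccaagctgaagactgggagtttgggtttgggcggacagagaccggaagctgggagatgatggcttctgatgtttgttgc

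The capitals in the Il1f8 window mark an AP-1 match (searched as TGANTCA) at bases -236 to -230 and a KLF match (CACCC) at -60 to -56, counted from the start site at 0. In the Il1f9 window they mark 2 CACCC matches, at -68 to -64 and at -35 to -31. In the Il1rl2 window they mark a TATA match (TATAAA, here on the minus strand) at -166 to -161 and a CACCC match at -86 to -82. Both strands were searched and no 2 of these matches overlap. Such letters are common: among 32851 windows of the same length, 7.81% held TGANTCA, 13.6% held TATAAA and 57.5% held CACCC. An E-box (CACGTG, in 7.15% of windows), a GRHL motif (AACNGGTT, in 2.09%) and a kappa B motif (in 4.51%) were not matched in these 3 windows or in either of the 2 windows of Il1f5. The windows of Il1f5 held no AP-1, TATA or CACCC match either, so CACCC was in 3 of the 5 windows of the family. These are matches of letters only, no binding was measured, and their relation to the correlations was not tested.

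The 18 libraries held 17312623 to 29599018 counted reads each. Levels are given as CPM, a gene's count relative to the TMM-scaled total of its library, and 16836 genes passed the filter. The keratinocyte markers that define skin were abundant throughout, with 6 basal markers summing to 11200 to 19700 CPM in Detergent B skin, 10400 to 24700 CPM in Detergent A skin and 10400 to 16700 CPM in PBS skin. The libraries differed widely in hair keratins, of which 18 of 19 listed genes were in the files and passed the filter. Their sum ran from 19.6 to 3910 CPM in Detergent B skin, 13.4 to 4910 CPM in Detergent A skin and 163 to 6890 CPM in PBS skin. In bulk skin, fewer cells of a type and less RNA per cell cannot be told apart.

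Against PBS, the 3 agonists and the antagonist rose together in Detergent B skin, by 1.89-fold to 3.06-fold, and the receptor did not pass the test. That is 4 of 5 genes with a higher level at an adjusted p under 0.05 (edgeR's quasi-likelihood test with Benjamini-Hochberg adjustment over all genes tested), where 1.97% of all genes did so. In Detergent A skin 1 of the 5, Il1f8, passed in the higher direction, where 0.0535% of all genes did so, and the other 4 had fold changes of 1.36 to 1.75 that did not pass. The count for Detergent A depended on the test and on single libraries. It was 5 with DESeq2 (797 over all genes, beside 32 with edgeR) and 5 with voomWithQualityWeights (3914 over all genes). When 1 library was left out it was 0 to 5 (0 to 888 over all genes). It was 5 without Detergent A replicate 2 (847 over all genes) and 4 without PBS replicate 6 (888 over all genes). The 2 comparisons share the PBS libraries.

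**Figure D1:**
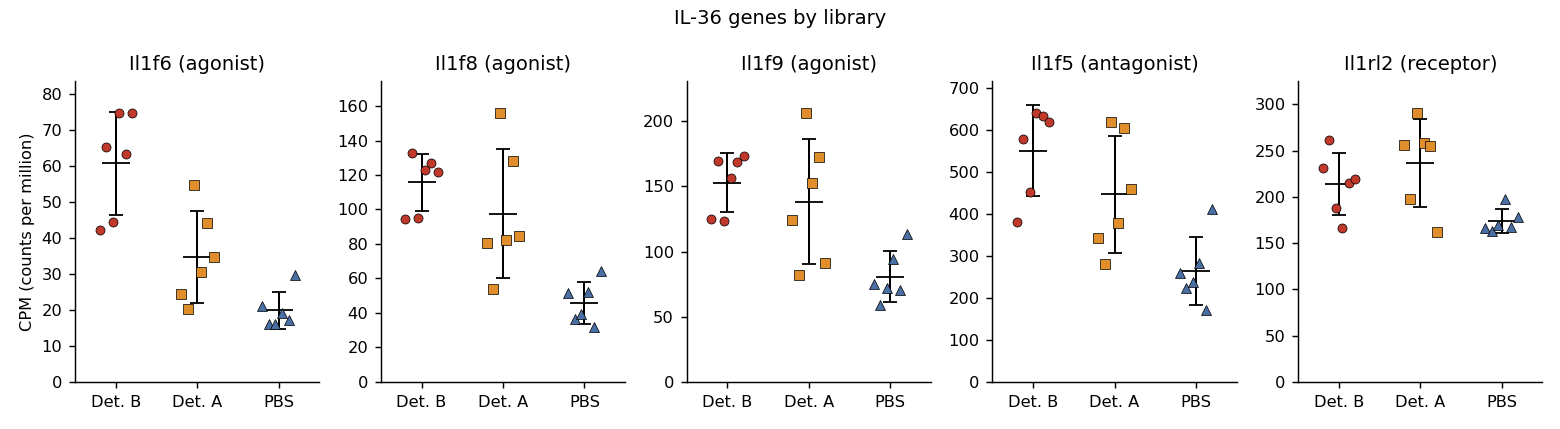
Level of each IL-36 gene in CPM (vertical axes, linear from 0) in every library of Detergent B, Detergent A and PBS skin, with 1 point per library, a long bar at the group mean and whiskers of 1 SD. Il1f6, Il1f8 and Il1f9 lie higher in each of the 6 Detergent B libraries than in any PBS library, while Il1rl2 overlaps between all groups.

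Among the agonists, Il1f6 had the largest fold change for Detergent B. Its lowest, median and highest levels were 42.3, 64.3 and 74.6 CPM in Detergent B skin, 20.2, 32.6 and 54.7 CPM in Detergent A skin, and 16.2, 18.1 and 29.7 CPM in PBS skin. The Detergent B libraries all stood above the highest PBS library, whereas 4 of 6 Detergent A libraries did. Of the 5 genes, 3 had a Detergent B range wholly above the PBS range, where 1.72% of all genes did so, and 0 had a Detergent A range wholly above it, where 0.404% did so. The fold change over PBS was 3.06 in Detergent B skin (95% interval 2.19 to 4.28, edgeR adjusted p = 0.006215), the third smallest p of all genes. In Detergent A skin it was 1.75 (1.25 to 2.43, edgeR adjusted p = 0.08661), and the gene was above the PBS mean in 6 of 6 libraries there.

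Il1f8 was the 1 family gene that passed in both comparisons. Its lowest, median and highest levels were 94.5, 122 and 133 CPM in Detergent B skin, 54.0, 83.6 and 156 CPM in Detergent A skin, and 31.8, 45.6 and 64.5 CPM in PBS skin. No Detergent B library overlapped the PBS range, and 1 of the 6 Detergent A libraries fell within it. The log2 fold change was 1.33 ± 0.22 (SE) for Detergent B against PBS (edgeR adjusted p = 0.009783) and 1.08 ± 0.22 for Detergent A against PBS (edgeR adjusted p = 0.04654). The call in Detergent A skin depended on single libraries. It was lost on leaving out any 1 of PBS replicates 1 to 5, Detergent A replicates 1, 3, 4 and 5 or Detergent B replicates 2, 5 and 6, with log2 fold changes of 0.90 to 1.13 and edgeR adjusted p of up to 0.1686.

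Il1f9, the third agonist, had 124, 163 and 173 CPM as its lowest, median and highest levels in Detergent B skin, 81.9, 138 and 206 CPM in Detergent A skin, and 58.9, 73.6 and 113 CPM in PBS skin. The Detergent B range lay wholly above the PBS range, though by a narrow margin, and the Detergent A range overlapped it. The fold change over PBS was 1.89 in Detergent B skin (1.40 to 2.56, edgeR adjusted p = 0.02755) and 1.71 in Detergent A skin (1.27 to 2.31, edgeR adjusted p = 0.0722).

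The antagonist Il1f5 was the most abundant of the 5 in CPM. Its lowest, median and highest levels were 382, 599 and 640 CPM in Detergent B skin, 281, 419 and 619 CPM in Detergent A skin, and 171, 248 and 412 CPM in PBS skin. PBS replicate 6, the highest PBS library, stood above Detergent B replicate 1, and the groups otherwise did not overlap between Detergent B and PBS. The fold change over PBS was 2.08 in Detergent B skin (1.51 to 2.87, edgeR adjusted p = 0.02004) and 1.69 in Detergent A skin (1.23 to 2.32, edgeR adjusted p = 0.09018). Leaving out 1 library at a time kept Il1f6 and Il1f8 past the threshold for Detergent B in all 18 fits. Il1f5 passed in 13 of these fits and missed without PBS replicate 2, 3 or 5 or Detergent B replicate 2 or 5 (edgeR adjusted p of up to 0.06802). Il1f9 passed in 10 and missed without PBS replicate 1, 2, 3 or 5 or Detergent B replicate 2, 4, 5 or 6 (up to 0.08503).

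The receptor Il1rl2 had its highest mean in Detergent A skin. It had 166, 217 and 262 CPM as its lowest, median and highest levels in Detergent B skin, 162, 256 and 290 CPM in Detergent A skin, and 163, 169 and 198 CPM in PBS skin. All 3 ranges overlapped, and the PBS libraries were the tightest, with an SD of 13.0 CPM around a mean of 174 CPM. The fold change over PBS was 1.23 in Detergent B skin (1.02 to 1.48, edgeR adjusted p = 0.1676) and 1.36 in Detergent A skin (1.13 to 1.64, edgeR adjusted p = 0.09018), and neither passed.

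Between the detergents, 0 of the 5 genes passed, and 0% of all genes did (edgeR, with 550 genes and 1 of the 5 at an unadjusted p under 0.05; DESeq2 and voomWithQualityWeights also called 0 genes). The 1 gene was Il1f6, with a fold change of 1.75 for Detergent B over Detergent A (95% interval 1.26 to 2.43, edgeR adjusted p = 0.9887). It was above the Detergent A mean in 6 of 6 Detergent B libraries and above the Detergent A maximum in 4 of them. The intervals of the other fold changes included 1, at 0.897 to 1.69 for Il1f5, 0.866 to 1.62 for Il1f8, 0.822 to 1.49 for Il1f9 and 0.749 to 1.09 for Il1rl2. These misses do not show that the detergents act alike.

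**Figure D2:**
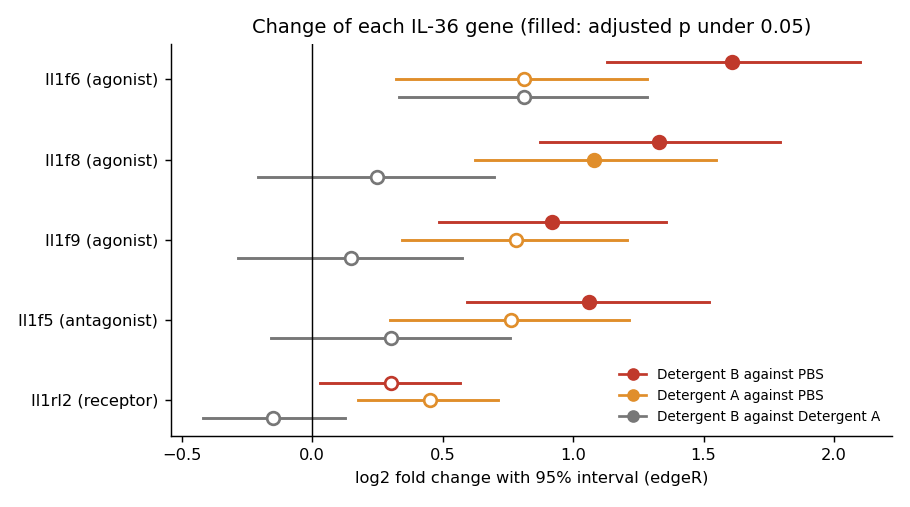
Log2 fold change of each IL-36 gene with its 95% interval (horizontal axis) for Detergent B against PBS, Detergent A against PBS and Detergent B against Detergent A. Filled symbols passed an edgeR adjusted p of 0.05, which in these comparisons were Il1f5, Il1f6, Il1f8 and Il1f9 for Detergent B and Il1f8 for Detergent A.

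Levels of different genes were compared per length, as CPM per kilobase of annotated exon (CPM/kb). In Detergent B skin the order was Il1f5 (123 ± 24.1 CPM/kb, SD, n = 6), Il1f8 (95.1 ± 13.6), Il1f9 (92.7 ± 13.8), Il1f6 (68.8 ± 16.2) and Il1rl2 (31.4 ± 4.88 CPM/kb). Of these neighbours, Il1f6 and Il1rl2 alone had ranges that did not overlap. In Detergent A skin the order was Il1f5 (99.6 ± 31.1 CPM/kb), Il1f9 (83.8 ± 29.2), Il1f8 (80.2 ± 30.6), Il1f6 (39.4 ± 14.5) and Il1rl2 (34.8 ± 6.92 CPM/kb), with every neighbouring pair overlapping. In PBS skin it was Il1f5 (58.9 ± 18.2 CPM/kb), Il1f9 (49.0 ± 11.9), Il1f8 (37.8 ± 10.02), Il1rl2 (25.5 ± 1.90) and Il1f6 (22.5 ± 5.85 CPM/kb), again with all neighbours overlapping. Il1f6 was thus above the receptor in 6 of 6 Detergent B libraries and in 3 of 6 Detergent A libraries, while in PBS skin the receptor was above Il1f6 in 5 of 6. Dividing by the longest transcript raised Il1rl2 to 54.7 CPM/kb in Detergent B skin, 60.6 CPM/kb in Detergent A skin and 44.5 CPM/kb in PBS skin. With that length Il1f6 was above Il1rl2 in 5 of 6 Detergent B libraries and the ranges overlapped, Il1rl2 was above Il1f6 in all 6 Detergent A libraries, and the 2 ranges did not overlap in PBS skin. With it Il1rl2 also came above Il1f8 in PBS skin, where Il1f8 was the higher in 1 of 6 libraries.

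The summed agonist level was 257 ± 42.1 CPM/kb in Detergent B skin, 203 ± 72.0 CPM/kb in Detergent A skin and 109 ± 26.7 CPM/kb in PBS skin (SD, n = 6 each). Il1f6 made up 26.6 ± 2.51% of it in Detergent B skin, 19.4 ± 2.56% in Detergent A skin and 20.7 ± 1.71% in PBS skin. The Detergent B shares, from 23.8 to 30.1%, did not overlap the PBS shares, from 17.7 to 21.9%. Il1f9 made up 36.2 ± 1.28% in Detergent B skin, 41.4 ± 4.70% in Detergent A skin and 44.9 ± 2.90% in PBS skin. Its Detergent B shares, from 33.9 to 37.6%, lay below the PBS shares, from 40.8 to 48.5%, also without overlap. Il1f8 made up 37.2 ± 1.61%, 39.2 ± 2.64% and 34.5 ± 2.73% in the same order of groups. The level of the antagonist Il1f5 divided by that of the summed agonists was 0.476 ± 0.0339 in Detergent B skin, 0.499 ± 0.0743 in Detergent A skin and 0.534 ± 0.0605 in PBS skin, with overlapping ranges. These shares and ratios are descriptions, and no test was made of them.

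**Figure D3:**
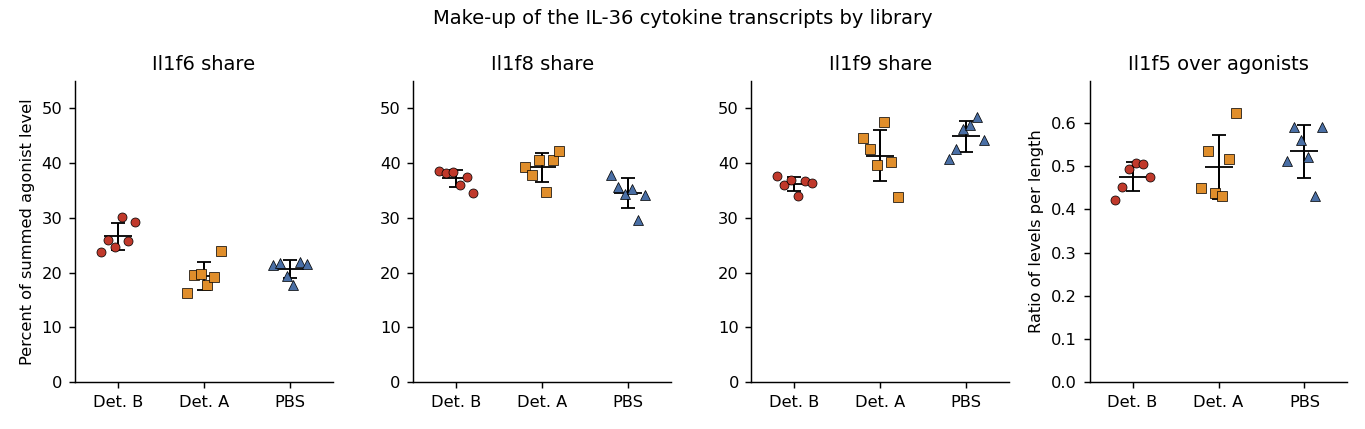
Make-up of the IL-36 family in Detergent B, Detergent A and PBS skin: share of each agonist in the summed agonist level (percent) and the antagonist to agonist ratio (per-length levels), with 1 point per library, a long bar at the mean and whiskers of 1 SD. The Il1f6 share lies between 23.8 and 30.1% in Detergent B skin and between 17.7 and 21.9% in PBS skin. The Il1f9 share lies between 33.9 and 37.6% in Detergent B skin and between 40.8 and 48.5% in PBS skin.

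Across the 18 libraries the 4 cytokines varied together. For log2 CPM, Pearson's r between pairs of cytokines ran from 0.882 (Il1f6 and Il1f9) to 0.968 (Il1f5 and Il1f8), and Spearman's rho from 0.868 to 0.940. For all 6 such pairs the permutation p for r was 1e-05, the smallest that 100000 resamples can give, and 1.667e-05 after adjustment over all 10 pairs. Removing the group means left r at 0.782 to 0.931 for these pairs, and leaving out the 2 libraries farthest from the median of the first gene left it at 0.884 to 0.952. The cytokines thus varied together between libraries of 1 group as well as between groups. Detergent A replicate 3 was the highest Detergent A library for all 5 genes and Detergent A replicate 2 the lowest for the 4 cytokines. Detergent B replicates 1 and 3 were the lowest of their group for all 4, and PBS replicate 6 was the highest of its group for these.

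The receptor had lower correlations with the cytokines than they had with each other, which is a description and not a tested difference. Its r was highest with Il1f9 (r = 0.756, rho = 0.748, permutation p adjusted over 10 pairs = 0.0007714 for r and 0.0008286 for rho), and with group means removed r was 0.675 (adjusted permutation p = 0.002857). For Il1f8 the r was 0.653 (adjusted permutation p = 0.005288), and 0.464 with group means removed (0.0661), where Spearman's rho was 0.501 (0.04601). For Il1f5 it was 0.507 (adjusted permutation p = 0.03712, and 0.1241 for a rho of 0.377) and 0.212 with group means removed (0.399), and for Il1f6 it was 0.444 (0.06505) and 0.235. Without the 2 libraries farthest from the median of the first gene, r with the receptor was 0.705 for Il1f9, 0.628 for Il1f6, 0.570 for Il1f8 and 0.374 for Il1f5. Within single groups, r of the receptor with the cytokines ran from -0.166 to 0.232 in Detergent B skin. It ran from 0.350 to 0.871 in Detergent A skin and from 0.290 to 0.707 in PBS skin, with Il1f9 the highest in each group.

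Other genes were ranked by Pearson's r with each member across the 18 libraries, among 13822 named genes with a mean of at least 1 CPM, as a measure of likeness without a test. Nearest to Il1f5 were Lrrc28 (0.986), Hrnr (0.985) and Ggct (0.983), and nearest to Il1f6 were Calm4 (0.959), Tmem40 (0.957) and Hrnr (0.951). Nearest to Il1f8 were Dnase1l2 (0.987), Glrx (0.983) and Cptp (0.979), and nearest to Il1f9 were Mpzl3 (0.983), Abhd6 (0.983) and Tprg (0.978). Hrnr encodes hornerin, a protein of the cornified layer of the epidermis, and Dnase1l2 encodes a nuclease of cornifying keratinocytes. Near to the receptor were Clock (0.961), the gene of a core circadian factor, and Bicd2 (0.955). Of all candidates, 99% had an r under 0.915 with Il1f5, 0.867 with Il1f6, 0.907 with Il1f8, 0.917 with Il1f9 and 0.854 with Il1rl2. Placed among these candidates, the other cytokines ranked 9 to 180 for Il1f5 and 6 to 88 for Il1f6. They ranked 14 to 73 for Il1f8 and 42 to 271 for Il1f9, so genes outside the family were nearer to each cytokine. Calm4, a calmodulin-like gene of the epidermis, had 4506 ± 1014 CPM in Detergent B skin, 3408 ± 1205 CPM in Detergent A skin and 1696 ± 424 CPM in PBS skin, and passed for Detergent B (edgeR adjusted p = 0.009783) but not for Detergent A (0.0548). Clock itself had 71.3 ± 11.6 CPM in Detergent B skin, 82.7 ± 17.3 CPM in Detergent A skin and 60.4 ± 5.22 CPM in PBS skin, and did not pass in either comparison.

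Scores of 2 marker lists, granular keratinocytes and hair keratins, were correlated with the family, and suprabasal markers are given without a correlation. Granular keratinocyte markers, the genes Flg, Lor, Ivl, Casp14, Tgm3 and Klk7 of the outermost living epidermis, summed to 4940 to 7150 CPM in Detergent B skin, 3200 to 6620 CPM in Detergent A skin and 2500 to 4250 CPM in PBS skin. For Detergent B, 4 of the 6 rose (Ivl, Flg, Klk7 and Casp14, edgeR adjusted p of 0.00978 to 0.0293), where 1.97% of all genes did so. Lor and Tgm3 did not pass. For Detergent A, 0 of 6 passed with edgeR and 5 had an unadjusted p under 0.05 (3158 of all 16836 genes did). DESeq2 called 3 (797 over all genes) and voomWithQualityWeights 5 (3914 over all genes). No marker of this list was at 0 in every library. The 6 suprabasal keratinocyte markers summed to 22700 to 40600 CPM in Detergent B skin, 15700 to 37800 CPM in Detergent A skin and 10000 to 23800 CPM in PBS skin. For Detergent B, edgeR called 2 of these 6 higher (1.97% of all genes), DESeq2 5 (1391 over all genes) and voomWithQualityWeights 6 (5074 over all genes). None of the 6 was at 0 in every library, and their part in the family's levels was not tested. The mean log2 CPM of the 6 granular markers, a score chosen after the data were seen, had r of 0.969 with Il1f5, 0.950 with Il1f6, 0.941 with Il1f8 and 0.850 with Il1f9 (permutation p adjusted over 5 genes of 1.667e-05 for Il1f5, Il1f6 and Il1f8 and 3.75e-05 for Il1f9). With group means removed these were 0.936, 0.885, 0.892 and 0.675, and for Il1rl2 the r was 0.432 pooled (adjusted permutation p = 0.07368) and 0.154 with group means removed (0.5434). Over the 5 genes Spearman's rho with this score was 0.408 to 0.969, and r with the 2 libraries of most distant score left out was 0.374 to 0.958.

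**Figure D4:**
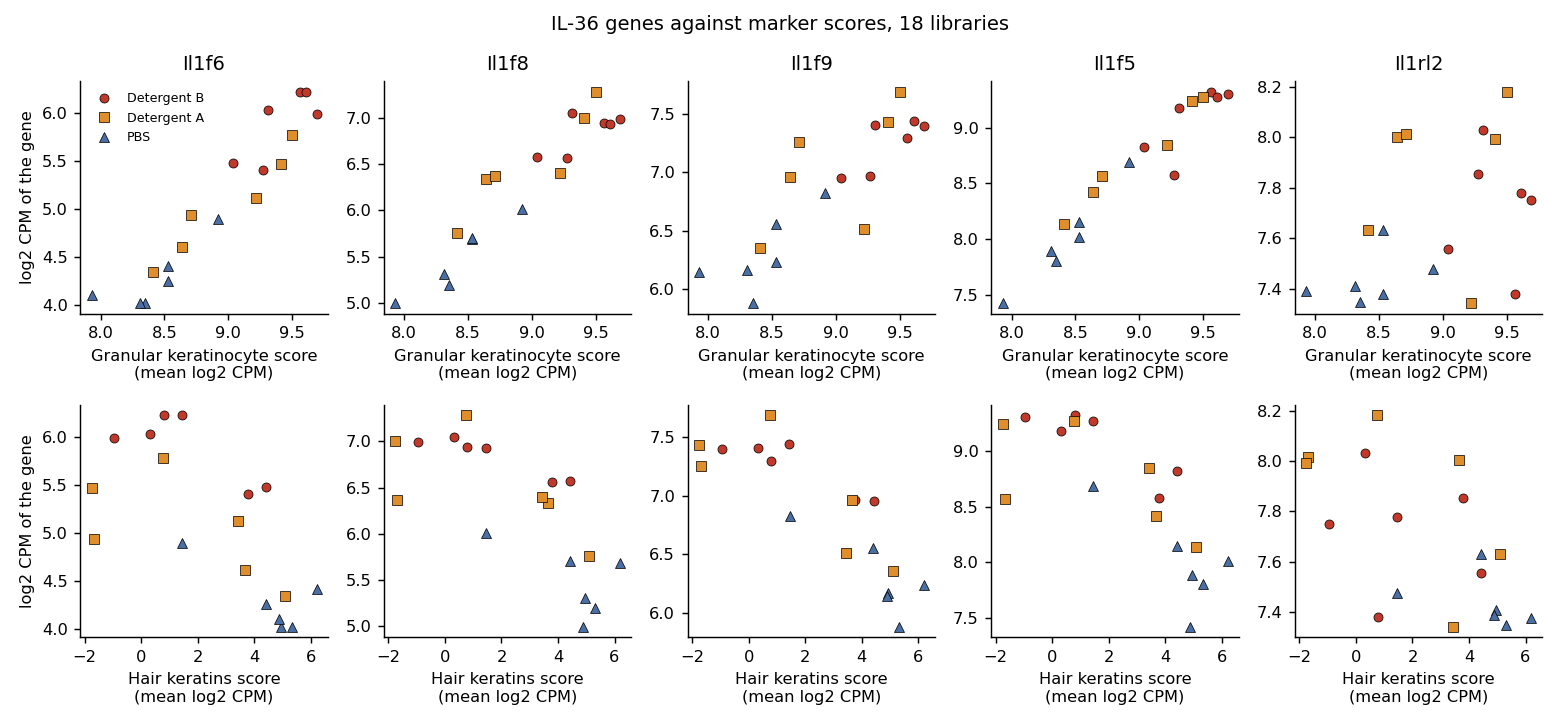
Level of each IL-36 gene (log2 CPM, vertical axes) against the granular keratinocyte score and the hair keratins score (mean log2 CPM, horizontal axes) in 18 libraries, with 1 point per library and a symbol per treatment. The cytokines rise along the granular score with r of 0.850 to 0.969 and fall along the hair keratins score with r of -0.694 to -0.843, and Il1rl2 has r of 0.432 and -0.615.

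The granular score did not overlap between Detergent B skin (9.04 to 9.69) and PBS skin (7.93 to 8.92), and 4 of its 6 genes themselves passed for Detergent B. A fit with this score as a covariate therefore cannot tell the score apart from the treatment. In that fit, 0 of the 5 genes and 0 of all genes tested passed for Detergent B against PBS with edgeR. The log2 fold changes were 0.58 for Il1f6 (edgeR adjusted p = 0.5584), 0.35 for Il1f8, 0.21 for Il1f9 and 0.04 for Il1f5. For Detergent A against PBS they were 0.17, 0.48, 0.35 and 0.16 in that order of genes. The second list, the hair keratins, had a score of 1.63 ± 2.08 in Detergent B skin, 1.59 ± 2.92 in Detergent A skin and 4.53 ± 1.63 in PBS skin (mean log2 CPM, SD, n = 6 each). For Detergent B, 0 of the 18 genes passed with edgeR or DESeq2, and 12 had an unadjusted p under 0.05 (3931 of all 16836 genes did). Of these 12, 1 was higher, and the log2 fold changes of the list ran from -3.83 to 1.06. voomWithQualityWeights called 18 (5074 over all genes), and no gene of the list was at 0 in every library. The score had r of -0.770 with Il1f5, -0.694 with Il1f6, -0.745 with Il1f8, -0.843 with Il1f9 and -0.615 with Il1rl2, and -0.691, -0.696, -0.651, -0.798 and -0.433 with group means removed. Spearman's rho ran from -0.853 to -0.622, and r with the 2 libraries of most distant score left out ran from -0.864 to -0.496. The permutation p adjusted over 5 genes for r ran from 0.0002 to 0.00793 pooled, and with group means removed from 0.00075 to 0.0047 for the cytokines and was 0.07193 for the receptor. With this score as a covariate 5 genes of all those tested passed for Detergent B, Il1f6 among them, and the log2 fold changes for Detergent B against PBS were 1.23 for Il1f6 (edgeR adjusted p = 0.04469), 0.99 for Il1f8 (0.06146), 0.70 for Il1f5 (0.1315) and 0.54 for Il1f9 (0.1532). For Detergent A against PBS, Il1f8 had 0.72 (edgeR adjusted p = 0.2111). The part of either tissue measure in the family's levels was not tested. Neutrophil markers, of which 5 of 10 passed the filter, summed to 31.4 to 57.8 CPM in Detergent B skin, 19.1 to 114 CPM in Detergent A skin and 22.5 to 46.0 CPM in PBS skin.

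The other genes of the pathway are given from lists chosen with earlier results known. Of 32 receptor and signalling genes, 2 rose and 0 fell for Detergent B (1.97% and 1.08% of all genes), with a median log2 fold change of 0.01 beside -0.01 over all genes. At an unadjusted p under 0.05 there were 11, of which 8 were higher, DESeq2 called 5 and voomWithQualityWeights 11. Over all 16836 genes, 3931 were at an unadjusted p under 0.05, DESeq2 called 1391 and voomWithQualityWeights 5074. The largest log2 fold change of the list in either direction was that of Fos, a subunit of AP-1, at -1.49 (edgeR adjusted p = 0.05967), a gene named after its values were seen. The 2 genes that rose were Traf6, a ubiquitin ligase below the receptor, at 104 ± 15.03 CPM in Detergent B skin and 70.9 ± 10.8 CPM in PBS skin (1.46-fold, edgeR adjusted p = 0.02938), and Mapk14, the gene of p38 alpha, at 154 ± 10.6 CPM in Detergent B skin and 127 ± 6.48 CPM in PBS skin (1.21-fold, edgeR adjusted p = 0.04662). Both calls depended on single libraries: Traf6 missed without PBS replicate 1, 2, 3 or 5 or Detergent B replicate 2, 5 or 6 (edgeR adjusted p of up to 0.08746), and Mapk14 missed in 11 of 18 such fits, without any of PBS replicates 1 to 5, Detergent A replicates 1 and 5 or Detergent B replicates 2, 4, 5 and 6 (up to 0.1218), and also without the filter on low counts (0.08149). For Detergent A, 0 of the 32 passed with edgeR, 10 had an unadjusted p under 0.05 (3158 of all 16836 genes did), DESeq2 called 4 and voomWithQualityWeights 10. Over all genes these 2 tools called 797 and 3914 for Detergent A. The median of the list was 0.09, and with edgeR 0.0535% of all genes rose and 0.137% fell. Il1rap, the accessory chain of the receptor, had 37.0 ± 4.38 CPM in Detergent B skin, 36.9 ± 6.07 CPM in Detergent A skin and 36.6 ± 5.39 CPM in PBS skin. Myd88 and Nfkbiz, a nuclear I kappa B protein that IL-36 is known to induce, did not pass either (edgeR adjusted p of 0.5152 and 0.867 for Detergent B). Of the proteases that trim IL-36 cytokines, 2 of 4 passed the filter and 0 passed the test with edgeR, DESeq2 or voomWithQualityWeights in either comparison with PBS, with 0 at an unadjusted p under 0.05. Ctss, the gene of cathepsin S, had 138 ± 30.3 CPM in Detergent B skin, 95.05 ± 38.2 CPM in Detergent A skin and 117 ± 34.8 CPM in PBS skin, while the neutrophil proteases Ctsg and Elane were under the filter.

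Of 22 genes reported as targets of IL-36 in keratinocytes, 15 passed the filter and 0 passed the test with edgeR for Detergent B or for Detergent A. At an unadjusted p under 0.05 there were 5 for Detergent B (3931 of all 16836 genes) and 7 for Detergent A (3158 of all genes), all 5 and all 7 higher. DESeq2 called 1 in each comparison (1391 over all genes for Detergent B and 797 for Detergent A). voomWithQualityWeights called 3 for Detergent B (5074 over all genes) and 1 for Detergent A (3914 over all genes). The median log2 fold change was 0.81 for Detergent B and 0.85 for Detergent A, beside -0.01 over all genes. Lcn2, the gene of the antimicrobial protein lipocalin 2, had the smallest adjusted p of the list for Detergent B, with 18.6 ± 11.5 CPM in Detergent B skin, 14.0 ± 6.78 CPM in Detergent A skin and 7.28 ± 2.79 CPM in PBS skin (edgeR adjusted p = 0.05959 for Detergent B and 0.1987 for Detergent A). S100a8, a calprotectin subunit, had 42.7 ± 57.1 CPM in Detergent B skin, 25.5 ± 28.9 CPM in Detergent A skin and 9.05 ± 3.46 CPM in PBS skin. S100a9, its partner, had 46.8 ± 52.0 CPM in Detergent B skin, 46.2 ± 48.1 CPM in Detergent A skin and 14.5 ± 6.80 CPM in PBS skin. In both detergent groups the SD of these 2 genes exceeded the mean. The neutrophil chemokine Cxcl1 had 2.30 ± 1.98 CPM in Detergent B skin, 4.69 ± 3.77 CPM in Detergent A skin and 2.69 ± 1.02 CPM in PBS skin, and Cxcl2 had 4.95 ± 7.37, 7.45 ± 13.9 and 1.28 ± 0.192 CPM in the same order of groups. The library highest in S100a8 was not the one highest in Il1f6 in either detergent group. Detergent A replicate 1 had 75.1 CPM of S100a8, the most of its group, and 24.3 CPM of Il1f6, which was below the median of its group. Detergent B replicate 2 had 155 CPM of S100a8, the most of its group, and 65.3 CPM of Il1f6, which was just above the median of its group.

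**Figure D5:**
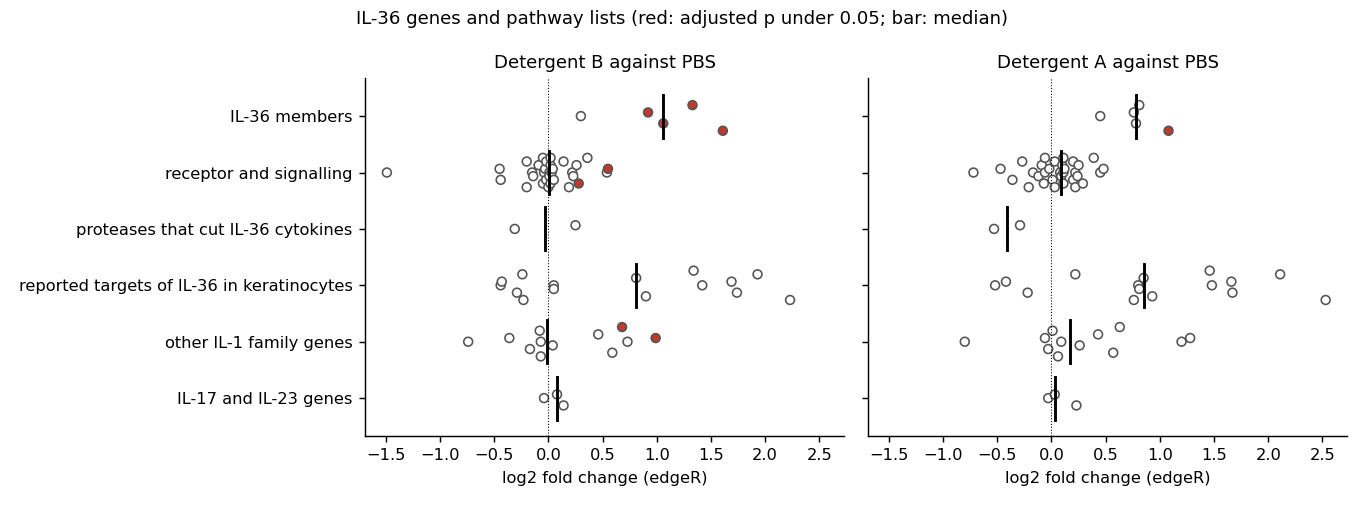
Log2 fold change over PBS (horizontal axis) of the IL-36 genes and of each pathway list, for Detergent B and Detergent A, with 1 point per gene that passed the filter, a black bar at the median and a dotted line at 0. Red points passed an edgeR adjusted p of 0.05. The receptor and signalling genes centre near 0 (medians of 0.01 and 0.09), and the reported targets of IL-36 centre at 0.81 for Detergent B and 0.85 for Detergent A.

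IL-17 cytokines, which act with IL-36 in psoriatic skin, had almost no reads. Il17a had 2 reads in Detergent B skin, 1 in Detergent A skin and 0 in PBS skin, where 0 reads allow a level of up to 0.0229 CPM over the group. Il22 had 0 reads in all 18 libraries, which allows up to 0.00761 CPM, and these limits cover counting error only. Of the 9 IL-17 and IL-23 genes, 3 passed the filter and 0 passed the test with edgeR, DESeq2 or voomWithQualityWeights, or at an unadjusted p under 0.05, in either comparison with PBS. Of 12 other IL-1 family genes, 2 rose for Detergent B, where 1.97% of all genes did so. They were Il1a (37.5 ± 8.04 CPM in Detergent B skin and 23.3 ± 3.37 CPM in PBS skin, edgeR adjusted p = 0.02561) and Il18 (84.7 ± 22.7 CPM and 42.8 ± 17.7 CPM in the same groups, edgeR adjusted p = 0.04162). Il1a missed without PBS replicate 2, 3 or 5 or Detergent B replicate 6 (edgeR adjusted p of up to 0.0787), and Il18 without any of PBS replicates 1 to 5, Detergent A replicate 5 or Detergent B replicates 2, 4, 5 and 6 (up to 0.1108), or without the filter on low counts (0.0741). The IL-1 receptor antagonist Il1rn had 140 ± 15.01 CPM in Detergent B skin, 151 ± 39.3 CPM in Detergent A skin and 102 ± 16.7 CPM in PBS skin, and Il1f10, a further relative in the cytokine cluster, had 1.32 ± 0.589, 1.25 ± 0.676 and 2.21 ± 0.716 CPM in that order of groups. Neither passed with edgeR (adjusted p of 0.08735 for Il1rn and 0.1914 for Il1f10 for Detergent B, and 0.0722 and 0.2102 for Detergent A). For Detergent A, edgeR called 0 of the 12 genes and 5 had an unadjusted p under 0.05 (3158 of all 16836 genes did). DESeq2 called 1 (797 over all genes) and voomWithQualityWeights 3 (3914 over all genes).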

How the data were processed

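RNA-seq libraries from mouse skin were deposited by the authors as raw read counts per Ensembl gene, 1 file per library. STAR, featureCounts and GRCm38.p5 are named in the submitters' processing notes; no source used here states tool versions, strand setting or annotation. Counts from overlapping genes could therefore be split or lost.

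Identifiers were matched to GENCODE M21 symbols (41519 of 41605). Counts were tested in R 4.3.3 with edgeR 4.0.16 (TMM, filterByExpr, robust quasi-likelihood fit to all 18 libraries with 15 residual degrees of freedom, Benjamini-Hochberg over 16836 genes, threshold 0.05), which was tested on simulated data. In every library the filter kept 99.89% or more of the reads. CPM values and log2 CPM (prior count of 2) describe levels. Correlations used 100000 permutations. Alternatives were DESeq2 1.42.0, limma 3.58.1 (voomWithQualityWeights), DESeq2 size factors in edgeR, no filter, only the 12 libraries compared, a replicate block, 2 tissue scores as covariates, and each library left out in turn. The named genes were all 5 members, list genes past the threshold, 12 list genes named whatever their result, and the 3 genes most like each member, of which 1 is not reported here. No 2 libraries were near-identical. The members and lists were chosen with earlier results of these data known. Il1f6 promoter and protein sequences were not used here.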

Additional observations from a re-analysis of the deposited data

Results flagged for a closer look

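Among 93 sets of 6 libraries checked for a library far from the rest of its group (Dixon's 95% critical value of 0.625), 8 stood out, where chance gives about 1 in 20. Of the IL-36 genes, Il1f6 was 29.7 CPM in PBS replicate 6, with the other PBS libraries at 16.2 to 21.2 CPM. The same library had 76.7 CPM of Il18, with the others at 28.1 to 46.3 CPM, and the lowest hair keratins score of its group. Detergent B replicate 2 stood apart in 4 genes: Nfkbiz at 79.4 CPM (others 51.6 to 59.1), Lcn2 at 41.2 CPM (8.80 to 17.0), S100a8 at 155 CPM (7.69 to 49.0) and S100a9 at 148 CPM (9.27 to 57.1). In Detergent A skin, replicate 1 had 35.7 CPM of Cxcl2 (others 0.38 to 3.79) and replicate 4 had 2.54 CPM of Il1f10 (0.666 to 1.31).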

How the results depend on the processing

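For Detergent B against PBS, 4 IL-36 genes passed with TMM or DESeq2 size factors, without the filter, with DESeq2, with only the 12 libraries compared and with the replicate block, and 5 with voomWithQualityWeights (Il1rl2, adjusted p = 0.007274). With hair keratins as covariate 1 passed and with the granular score 0, and without each library in turn 2 to 4 (2 without PBS replicate 2, 3 or 5 or Detergent B replicate 2 or 5). Over all genes, 514 passed, against 251 without the filter, 1391 with DESeq2, 5074 with voomWithQualityWeights, 5 with the hair score, 0 with the granular score and 28 (without PBS replicate 3) to 1888 (without PBS replicate 6) without each library. For Detergent A against PBS, 1 IL-36 gene passed, against 5 with DESeq2, 5 with voomWithQualityWeights, and 0 without the filter, with only the 12 libraries compared, with the replicate block, and with either score. Without each library it was 0 to 5 (5 without Detergent A replicate 2, 4 without PBS replicate 6, 3 without Detergent A replicate 6, and 0 without PBS replicates 1 to 5, Detergent A replicates 1, 3, 4 and 5 or Detergent B replicates 2, 5 and 6). Over all genes, 32 passed, against 797 with DESeq2, 3914 with voomWithQualityWeights, 0 with the block or either score and 0 to 888 without each library (847 without Detergent A replicate 2, 888 without PBS replicate 6). The labels do not say whether the replicate numbers pair the libraries, and correlations of expression cannot settle it. Over 18 same-numbered pairs r ran from -0.348 to 0.546, 8 pairs were over 0.1, and 6 libraries correlated best with their own number. With the replicate block, Il1f8 had an adjusted p of 0.1132 for Detergent A and Mapk14 of 0.06061 for Detergent B. With the granular score, 3 genes changed sign for Detergent B against Detergent A, Il1f5 (-0.12), Il1f8 (-0.13) and Il1f9 (-0.15), and so did Il18 (-0.05) and Flg (-0.08), itself in the score, for Detergent B against PBS, and the cause was not tested. With each library left out, Flg passed in 9 of 18 fits, Klk7 in 10, and Calm4, Ivl and Casp14 in 18, and with either score none of these 5 passed, nor did Traf6, Mapk14, Il1a or Il18. The antagonist to agonist ratio was 0.752 in Detergent B skin, 0.789 in Detergent A skin and 0.845 in PBS skin by longest transcript, and 1.67, 1.69 and 1.79 as a ratio of CPM. Without each library it was 0.470 to 0.487, 0.474 to 0.512 and 0.523 to 0.555 in that order of groups. By Pearson's r, the correlations of Il1rl2 with Il1f5, Il1f8 and the hair keratins score did not pass with group means removed. Depth limits Il17a and Il22, which were read 3 times or fewer in all libraries together.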
